A study of Mus musculus with 6 samples.

Results

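The 33 genes described here carry fatty acids into the heart muscle cell and through β-oxidation. They were taken by gene symbol from a list of uptake proteins, carnitine shuttle proteins and oxidation enzymes. All 33 were found among the 17121 genes of the count table, and all 33 were among the 13040 genes with enough counts to be tested. RNA of the left ventricle (LV) was sequenced from 3 mice with a cardiomyocyte-specific NCoR1 knockout (CMNKO) and from 3 littermate controls (LC), each as its own library. All mice were 2 months old and on the C57BL6/J background. The knockout combines floxed NCoR1 alleles with a Cre recombinase under the αMHC promoter, which is active in cardiomyocytes, so other cells of the ventricle keep the gene. The sources used here do not say whether the LC mice carried floxed alleles or Cre. The question for these genes was whether their transcripts differ between CMNKO and LC ventricles without any added load on the heart.

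Fatty acids are the main fuel of the adult heart. They enter the cardiomyocyte through membrane and binding proteins, are activated to acyl-CoA, cross the inner mitochondrial membrane as carnitine esters and are shortened in repeated rounds of dehydrogenation, hydration, a further dehydrogenation and thiolysis. Double bonds need extra isomerases and a reductase, and the electrons of the acyl-CoA dehydrogenases pass through an electron transfer flavoprotein to the respiratory chain. NCoR1 is a corepressor that nuclear receptors bind, and among these receptors are PPARα and ERRα, which drive many of these genes.

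The counts summed to between 6319488 and 8752609 per library, and a single library held between 71 and 40675 counts of a member. Levels are given below as CPM, counts scaled to a common library size after trimmed-mean (TMM) normalization. Ncor1 itself stood at 111, 102 and 90.7 CPM in LC 15, LC 25 and LC 26 and at 50.5, 51.3 and 42.4 CPM in CMNKO 16, CMNKO 17 and CMNKO 18, with adjusted p = 0.00845 by edgeR's quasi-likelihood test, Benjamini-Hochberg adjusted. The control libraries were not alike. LC 25 and LC 26 carry later library numbers than the other 4, and the first principal component of all genes (48.7% of the variance) placed them at 34.6 and 36.7, against -10.1 for LC 15 and -22.8 to -17.7 for the CMNKO mice. The labels do not call these numbers batches. Each result was therefore also fitted with the library series as a term, which leaves LC 15 as the only control, and the values of LC 15 are pointed out below. Nothing in the labels says more of how the mice were paired or bred than that the controls are littermates. The p-values of edgeR set the genotype difference against the spread between mice within a group. In LC this spread includes the split between the control libraries.

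Cardiomyocyte markers were abundant in every library, with a summed level of 82910 to 97868 CPM over 10 genes in LC and 86580 to 95654 CPM in CMNKO, and none of the 10 rose or fell. Marker lists of 4 other cell types had higher summed ranges in the CMNKO libraries, without overlap for endothelium and for smooth muscle and pericytes and with overlap for fibroblasts and macrophages. The 10 endothelial markers summed to 657 to 857 CPM in LC and 971 to 1102 CPM in CMNKO, the 8 smooth muscle and pericyte markers to 307 to 488 and 741 to 1075 CPM, the 9 fibroblast markers to 621 to 784 and 723 to 1159 CPM, and the 7 macrophage markers to 149 to 218 and 211 to 304 CPM, in the same order. LC 15 was the highest control in all 4 lists, at 857, 488, 784 and 218 CPM in the order given. It lay above CMNKO 18 for fibroblasts and above CMNKO 17 and CMNKO 18 for macrophages. Of these 4 lists 1 gene, in the smooth muscle and pericyte list, rose, and none fell. The 6 adipocyte markers other than Fabp4 summed to 13, 0 and 0 counts in the LC libraries and to 212, 76 and 8 counts in the CMNKO libraries, with Adipoq, Plin1 and Retn at 0 in every LC library. Fabp4 held nearly all counts of the adipocyte list and did not separate the groups. It stood at 629, 578 and 567 CPM in LC and 687, 552 and 580 CPM in CMNKO. With Fabp4 the list summed to 567 to 631 CPM in LC and 562 to 710 CPM in CMNKO. The skeletal muscle list was lower in CMNKO, at 2789.7 to 3537 CPM in LC and 2149 to 2598 CPM in CMNKO. Of its 8 genes 3 were in the table, and nearly all of the sum was the creatine kinase Ckm, which cardiomyocytes make as well (log2 fold change -0.40, adjusted p = 0.191 by the same test), while Tnnt3 and Mylpf held 2 to 16 counts each per library. The part of these cells in the levels of the fatty acid genes was not tested, and in whole ventricle fewer cells of a type and less RNA per cell cannot be told apart.

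In LC ventricle the fatty acid genes covered a wide range of levels, here compared per kilobase of transcript because longer transcripts collect more counts. The cytosolic carrier Fabp3 was highest, at 5363 ± 682 CPM per kb (mean ± SD, n = 3). Ech1, an isomerase for unsaturated fatty acids, followed at 1512 ± 129, and Lpl, the lipase that frees fatty acids from lipoproteins in the capillary, at 1164 ± 43.3 CPM per kb. Etfb (830.1 ± 41.1), Acaa2 (718 ± 42.5) and Acadm (666 ± 44.4) completed the 6 highest. The lowest were the peroxisomal enzyme Ehhadh at 4.44 ± 0.625, the liver-type carnitine palmitoyltransferase Cpt1a at 8.99 ± 3.29 and the carnitine transporter Slc22a5 at 9.96 ± 1.25 CPM per kb. In CMNKO ventricle Fabp3 stood at 3579 ± 646 CPM per kb and Ech1 at 855 ± 67.3, below Lpl at 1107 ± 62, so that Lpl stood above Ech1 there.

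**Figure D1:**
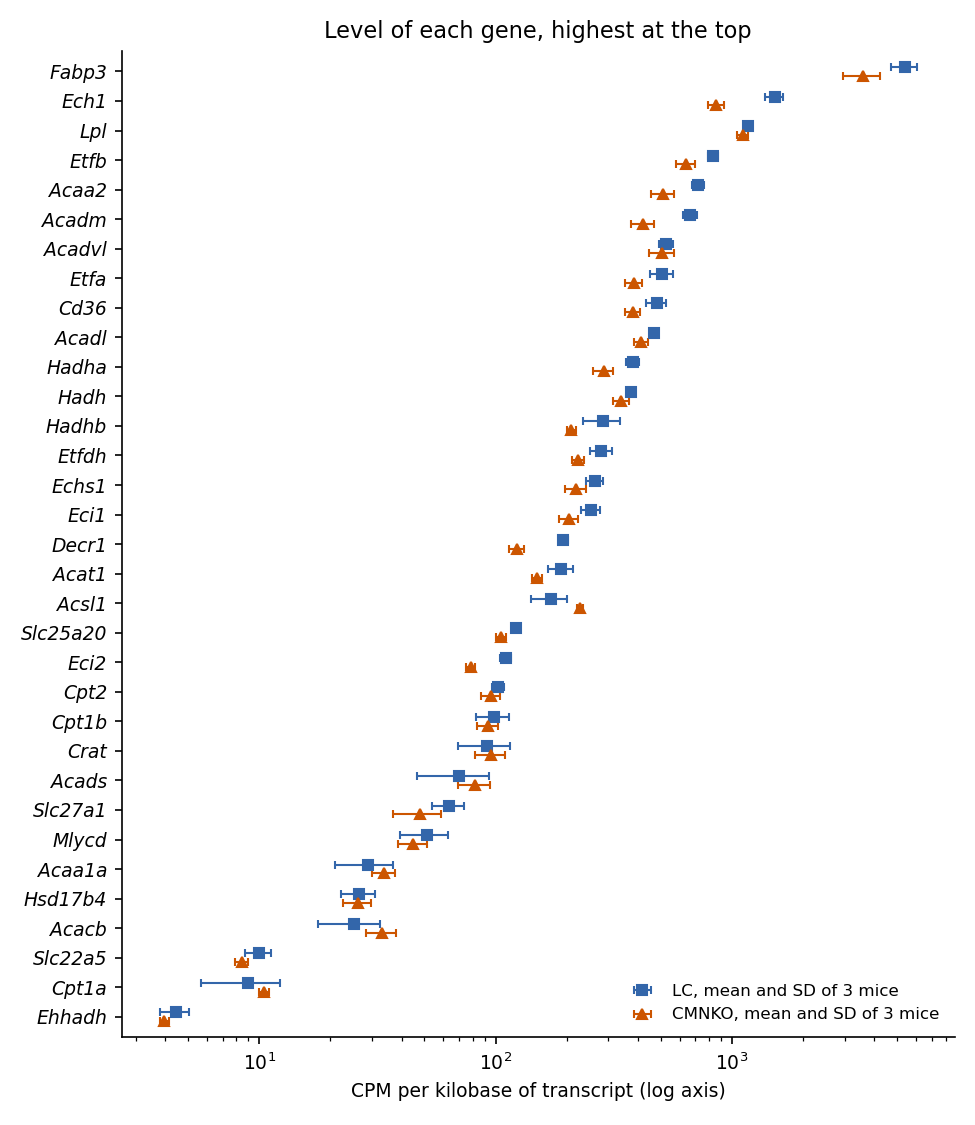
Level of each of the 33 genes in CPM per kilobase of transcript on a log axis, with LC as blue squares and CMNKO as orange triangles (mean, bars SD over 3 mice) and genes ordered by their LC level. Fabp3 lies far to the right of the others, Ech1 falls below Lpl in CMNKO, and Acsl1 is the clearest case of a higher CMNKO level.

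Most transcripts of mitochondrial β-oxidation enzymes were lower by estimate in the CMNKO ventricles. Of the 33 genes 2 fell, Ech1 and Decr1, which both handle the double bonds of unsaturated fatty acids, and 0 rose (edgeR's quasi-likelihood test, adjusted over all genes at a threshold of 0.05). Over all genes tested 0.337% fell and 0.268% rose. At an unadjusted p under 0.05, 15 of the 33 were lower, where 8.8% of all genes were, and 1 was higher, where 10.1% were. Every CMNKO mouse lay below every LC mouse in 18 genes, where this held for 12.3% of all genes, and above every LC mouse in 1 gene, where it held for 11.2%. By estimate 27 of the 33 were lower, beside 49.8% of all genes. With libraries scaled by their totals only 22 were lower, in a fit where the median of all genes was 0.12. The median log2 fold change of the 33 genes was -0.24, against 0.0012 over all genes tested, and the values ran from -0.82 to 0.41.

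No estimate reached 2-fold, and in 32 of them the 95% interval of the change lay within 2-fold in either direction, Ech1 being the exception. Together the 33 genes took 2.63, 2.56 and 2.53% of all counts in LC 15, LC 25 and LC 26 and 2.24, 2.17 and 2.36% in CMNKO 16, 17 and 18. Transcripts encoded in the mitochondrial genome took 25.6, 34.9 and 31.5% in LC and 26.9, 26.2 and 25.6% in CMNKO. Outside the mitochondrially encoded genes the shares were 3.56, 4.0 and 3.76% in LC and 3.10, 2.98 and 3.20% in CMNKO. In both reckonings the lowest LC mouse lay above the highest CMNKO mouse. CMNKO 18 was nearest to the controls, with a median log2 ratio to the LC mean of -0.13 over the 33 genes, against -0.27 in CMNKO 16 and -0.29 in CMNKO 17.

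**Figure D2:**
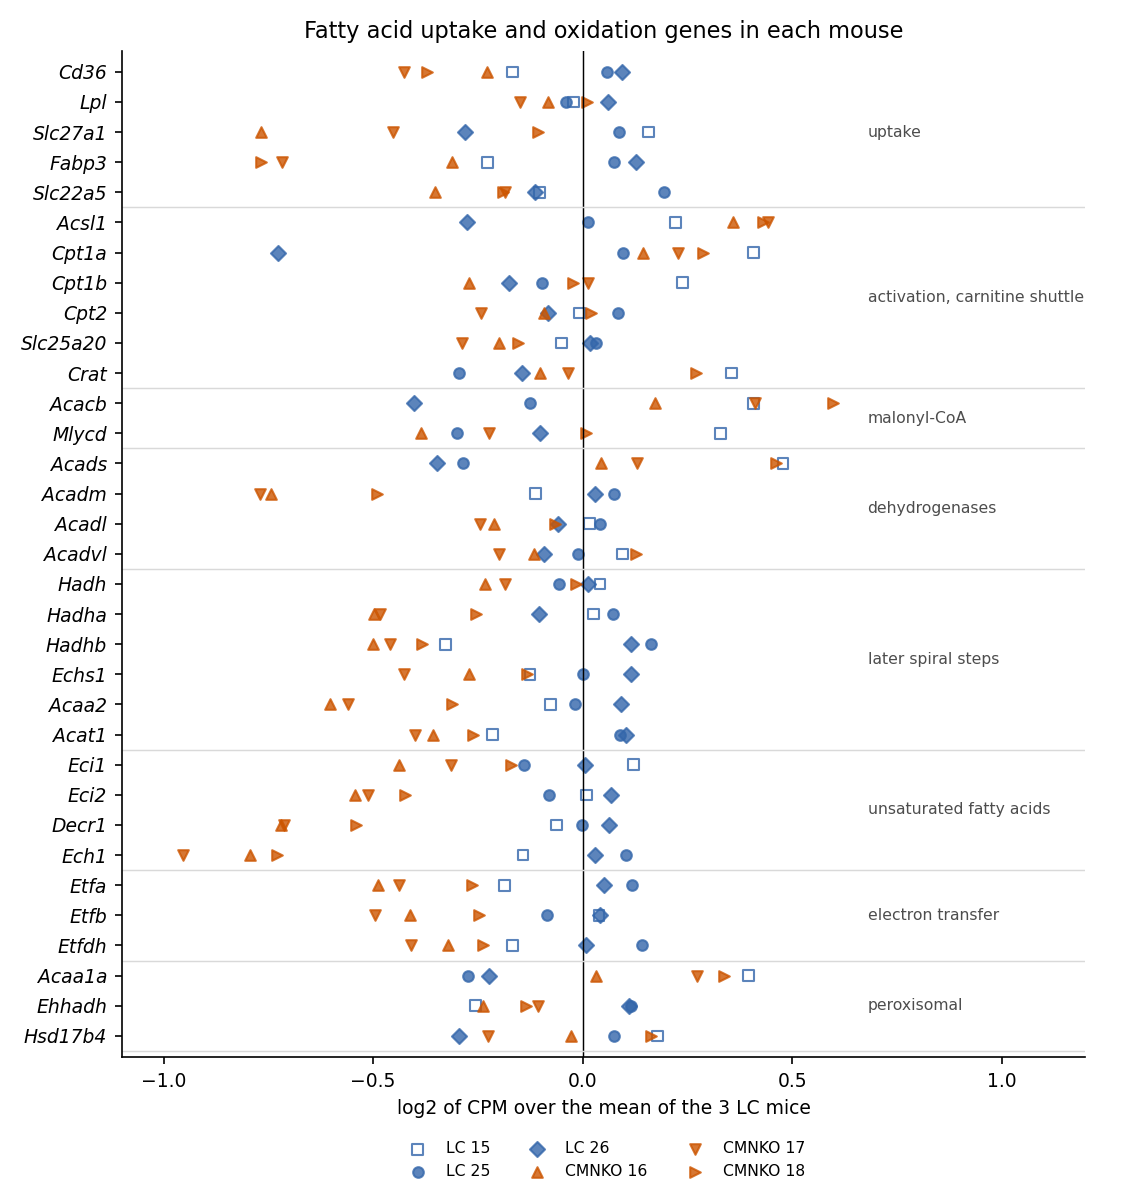
Level of each gene in each mouse as the log2 of its CPM over the mean of the 3 LC mice, grouped by step of the pathway, with LC in blue (LC 15 as an open square, LC 25 as circles, LC 26 as diamonds) and CMNKO in orange triangles. These triangles lie left of all LC points in 18 genes, among them all 4 genes for unsaturated fatty acids and all 3 of electron transfer, and right of them in Acsl1 alone.

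When the library series was added to the fit, 31 of the 33 genes were lower by estimate, beside 48.8% of all genes, and the median was -0.19 against 0.0080 over all genes. None of the 33 passed the threshold in that fit, which rests on LC 15 as the only control. Every CMNKO mouse lay below LC 15 in 27 genes and above it in 2, Acsl1 and Ehhadh. The share of all genes in which this held was not counted, so these numbers have no background to be read against. The split between the controls had no common direction for these genes, since LC 25 and LC 26 were both below LC 15 in 13 of them and both above it in 13. Along the first principal component of the 33 genes alone (66.6% of their variance) the LC mice stood at -0.22, -1.34 and -1.58 and the CMNKO mice at 1.00, 1.31 and 0.84, so that LC 15 lay between the other controls and the knockouts.

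**Figure D3:**
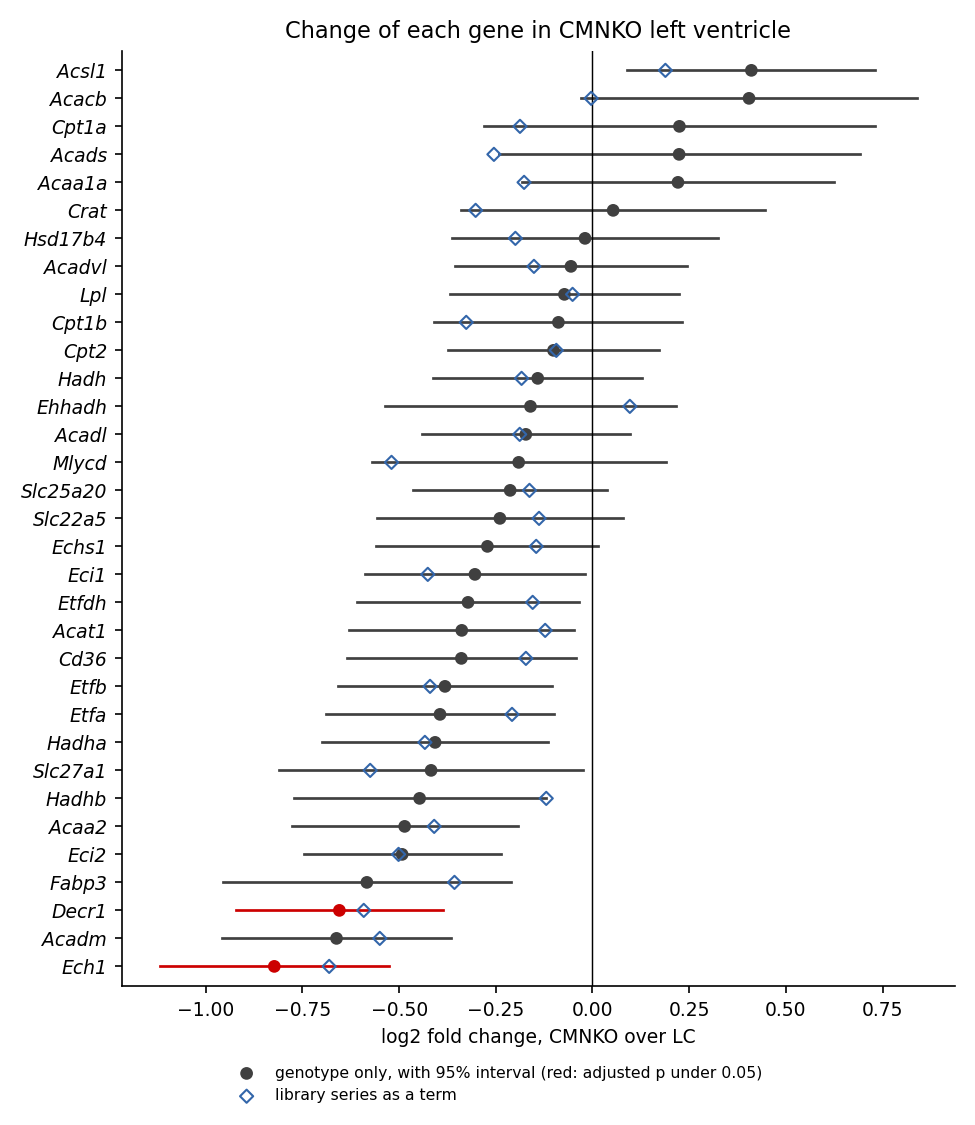
Log2 fold change of each gene, CMNKO over LC, with its 95% interval (filled circles, genotype only) and the estimate with the library series as a term (open diamonds). Ech1 and Decr1, in red, had an adjusted p under 0.05, most estimates lie left of 0 in both fits, and Acacb, Cpt1a, Acads, Acaa1a and Crat cross from right to left with the series term, while Ehhadh crosses from left to right.

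Among the 5 uptake genes all estimates were below 0 (that of Lpl turned positive with library totals only and with the GC content correction), with a median of -0.34, or -0.17 with the series term, and none passed the test. Fabp3, the carrier that takes fatty acids through the cytosol of muscle, stood at 3773, 4651 and 4817 CPM in LC 15, LC 25 and LC 26 and at 3557, 2685 and 2595 CPM in the CMNKO mice. The groups did not overlap, but LC 15, the lowest control, lay just above CMNKO 16, the highest knockout. The log2 fold change of Fabp3 was -0.58 ± 0.17 (SE), with adjusted p = 0.124 by edgeR's quasi-likelihood test, Benjamini-Hochberg adjusted. With the series term Fabp3 was at -0.36 (adjusted p = 0.73 by the same test). The membrane translocase Cd36 (-0.34, -0.17 with the series term) and the carnitine transporter Slc22a5 (-0.24) also had non-overlapping groups. The transporter and acyl-CoA synthetase Slc27a1 (-0.42) had overlapping groups, CMNKO 18 lying above LC 26. Lpl stood at 4721, 4658 and 4993 CPM in LC and 4521, 4319 and 4826 CPM in CMNKO, with CMNKO 18 above LC 15 and LC 25. Its log2 fold change was -0.073 with a 95% interval of -0.37 to 0.22. Cd36 is made by endothelial and fat cells as well, and Lpl by fat cells. Summed endothelial markers were higher in every CMNKO library, and adipocyte markers other than Fabp4 in CMNKO 16 and CMNKO 17, as given above.

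Estimates for activation and the carnitine shuttle lay on both sides of 0. The median of the 6 genes was -0.017, and 3 of the 6 estimates were below 0. With the series term the median was -0.18, close to that of the uptake genes at -0.17. Acsl1, the main acyl-CoA synthetase of the heart, was the only one of the 33 genes with every CMNKO mouse above every LC mouse. It stood at 777, 671 and 549 CPM in LC 15, LC 25 and LC 26 and at 854, 904 and 897 CPM in CMNKO 16, 17 and 18. LC 15 was the nearest control. The log2 fold change of Acsl1 was 0.41 ± 0.15 (SE, adjusted p = 0.174 by the same test), and 0.19 with the series term.

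The carnitine palmitoyltransferases that commit fatty acids to mitochondria did not pass the test. Cpt1b, the muscle form, stood at 336, 267 and 252 CPM in LC and 236, 288 and 280.5 CPM in CMNKO, and Cpt1a, the form that prevails in liver, at 51.5, 41.5 and 23.5 and 42.9, 45.4 and 47.3 CPM, in the same order. LC 15 was the highest mouse for both genes, and LC 26 was the lowest for Cpt1a. The log2 fold change was -0.088 for Cpt1b, with a 95% interval of -0.41 to 0.23, and 0.22 for Cpt1a, with an interval of -0.28 to 0.73, and both were negative with the series term at -0.33 and -0.19. Per length the ratio of Cpt1a to Cpt1b was 0.103, 0.104 and 0.0624 in LC and 0.122, 0.106 and 0.113 in CMNKO, so Cpt1b prevailed in every mouse. The ratio was higher by 0.38 on the log2 scale in CMNKO, with groups that did not overlap but came close at LC 25 and CMNKO 17 (two-sided exact permutation test, p = 0.10, adjusted p = 0.20 over 4 pairs of genes). With 3 mice against 3, 0.10 is the smallest p this test can give. Cpt2, which reforms acyl-CoA in the matrix (-0.10), the carnitine carrier Slc25a20 (-0.21, groups apart) and the carnitine acetyltransferase Crat (0.053, -0.30 with the series term) did not pass the test.

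Malonyl-CoA inhibits the carnitine palmitoyltransferase step, and the genes of its synthesis and removal had estimates of opposite sign. Acacb, the mitochondrial acetyl-CoA carboxylase that makes it, stood at 292, 202 and 167 CPM in LC and 248, 293 and 334 CPM in CMNKO. LC 15 was level with CMNKO 17, so the groups overlapped. Mlycd, the decarboxylase that removes malonyl-CoA, stood at 137, 88.7 and 102 and 83.5, 93.5 and 109.7 CPM, again with LC 15 the highest. The log2 fold change was 0.40 ± 0.20 (SE) for Acacb (adjusted p = 0.291 by edgeR's quasi-likelihood test) and -0.19 ± 0.17 for Mlycd (adjusted p = 0.558 by the same test). With the series term these were -0.0035 and -0.52. Taken as a ratio within each mouse, Acacb to Mlycd per length was 0.517, 0.552 and 0.397 in LC and 0.721, 0.760 and 0.736 in CMNKO. Here LC 15 lay with the other controls and the groups did not overlap. The ratio was higher by 0.61 on the log2 scale in CMNKO (exact permutation test, p = 0.10, adjusted p = 0.20), by 0.51 against LC 15 alone, and by 0.47 to 0.70 with any 1 mouse left out.

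The acyl-CoA dehydrogenases, which open each round of β-oxidation and divide the work by chain length, had estimates on both sides of 0, and none passed the test. Their median was -0.11, or -0.22 with the series term, where all estimates were below 0. Acadm, for medium chains, stood at 1262, 1437 and 1392 CPM in LC 15, LC 25 and LC 26 and at 815, 800.1 and 971 CPM in CMNKO 16, 17 and 18. Every knockout lay below every control by a wide gap. The log2 fold change of Acadm was -0.66 ± 0.13 (SE), with a 95% interval of -0.96 to -0.37. This lower estimate missed the threshold at an adjusted p of 0.0572 by edgeR's quasi-likelihood test. With the series term Acadm was at -0.55. Acadl, for long chains, was at -0.17 with groups apart. Acadvl, for very long chains, was at -0.056 with an interval of -0.36 to 0.24. Acads, for short chains, was at 0.22, but LC 15 was its highest mouse and the estimate was -0.25 with the series term.

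After the dehydrogenases come hydration, the oxidation of the hydroxyl group and thiolysis, and all 6 genes of these steps had lower estimates, with a median of -0.37, or -0.16 with the series term, and groups apart in 5. Acaa2, the mitochondrial thiolase, stood at 1032, 1074 and 1159 CPM in LC and 716, 739 and 877 CPM in CMNKO. CMNKO 18 was the nearest of the knockouts to the controls. The log2 fold change of Acaa2 was -0.49 ± 0.13 (SE, adjusted p = 0.11 by the same test), and -0.41 with the series term. Hadha and Hadhb encode the subunits of the mitochondrial trifunctional protein, which acts on long chains. Hadha stood at 1553, 1602 and 1419 and 1079, 1091 and 1279 CPM and Hadhb at 465, 654 and 633 and 413, 424 and 447 CPM. For Hadhb LC 15 lay near the knockouts, while for Hadha it lay among the controls. Their log2 fold changes were close, at -0.41 and -0.45 (adjusted p = 0.153 and 0.157 by the same test), but with the series term they were -0.43 and -0.12. The ratio of Hadha to Hadhb per length ran from 1.14 to 1.7 in LC and from 1.31 to 1.46 in CMNKO (exact permutation test, p = 1). The thiolase Acat1 (-0.34, -0.12 with the series term) and the short-chain hydratase Echs1 (-0.27, -0.15 with the series term) had groups apart, and the short-chain hydroxyacyl dehydrogenase Hadh (-0.14) did not.

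Hadha and Hadhb lie head to head. Promoter windows of RefSeq (GRCm38.p6), which hold 250 bases before and 50 after a gene's start, were at hand for 26 of the 33 genes, and those of Hadha and Hadhb shared 228 of their 300 bases on opposite strands. The Hadhb window, at chr5:30155003-30155302 on the plus strand, is shown because most of it is also part of the Hadha window, with the shared bases in capitals.
Hadhb: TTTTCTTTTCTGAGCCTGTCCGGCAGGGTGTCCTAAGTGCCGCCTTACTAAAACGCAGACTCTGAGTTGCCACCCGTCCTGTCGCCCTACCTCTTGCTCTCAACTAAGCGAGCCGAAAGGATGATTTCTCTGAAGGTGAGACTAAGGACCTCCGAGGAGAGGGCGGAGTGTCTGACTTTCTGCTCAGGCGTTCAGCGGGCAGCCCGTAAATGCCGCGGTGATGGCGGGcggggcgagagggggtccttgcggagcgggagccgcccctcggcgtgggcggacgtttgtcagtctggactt

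The lowest median of any step was that of the auxiliary enzymes for unsaturated fatty acids. In this group 2 of 4 genes fell, all 4 had groups that did not overlap, and the median was -0.57, or -0.55 with the series term. Summed over the 4 genes the level was 2792, 3073 and 3043 CPM in LC and 1798, 1705 and 1949 CPM in CMNKO. Ech1, which shifts double bonds between positions of a diene, stood at 1736, 2057 and 1954 CPM in LC 15, LC 25 and LC 26 and at 1105, 989 and 1156 CPM in CMNKO 16, 17 and 18. Each of the knockouts lay far below LC 15, the lowest control. Ech1 fell by 43.5%, with a log2 fold change of -0.82 ± 0.13 (SE, adjusted p = 0.0251 by edgeR's quasi-likelihood test, Benjamini-Hochberg adjusted).

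Decr1, the mitochondrial dienoyl-CoA reductase, stood at 548, 572 and 598 CPM in LC and 348, 349.8 and 394 CPM in CMNKO. The 3 controls lay close to each other, LC 15 included, and CMNKO 18 was the highest knockout. Decr1 fell by 36.5% (log2 fold change -0.65 ± 0.12, SE, adjusted p = 0.0417 by the same test). Eci2, an enoyl-CoA isomerase found in mitochondria and peroxisomes, stood at 194, 182 and 202 and 132, 135 and 144 CPM. Its groups were also narrow and apart, at a log2 fold change of -0.49 ± 0.12 (SE) that did not pass the test (adjusted p = 0.0848 by the same test). With the series term Eci2 was at -0.50. The mitochondrial isomerase Eci1 was at -0.30, with groups apart.

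Both calls needed every mouse but LC 15. With the series term Ech1 was at -0.68 and Decr1 at -0.59 (adjusted p = 0.159 and 0.197 by the same test), so their size changed little while the call was lost. Neither passed when LC 25, LC 26, CMNKO 16, CMNKO 17 or CMNKO 18 was left out. Adjusted p was then 0.0715 to 0.198 for Ech1 and 0.0936 to 0.249 for Decr1 by the same test. Few genes of any kind were called in these fits, in the same order 36, 25, 0, 0 and 11 in all. Ncor1 itself missed the threshold without CMNKO 16, CMNKO 17 or CMNKO 18 (adjusted p = 0.0862, 0.0759 and 0.0536 by the same test). The call of Decr1, but not that of Ech1, was also lost with library totals only and with the GC content correction (adjusted p = 0.0838 and 0.0514 by the same test). Without LC 15, where genotype and library series cannot be told apart, both genes passed (adjusted p = 0.000848 for Ech1 and 0.00266 for Decr1 by the same test), and 12 of the 33 genes fell and 4 rose, beside 7.67% and 11.8% of all genes. DESeq2 called 6 of the 33 as lower, namely Ech1, Decr1, Acadm, Eci2, Acaa2 and Fabp3, beside 1.13% of all genes.

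**Figure D4:**
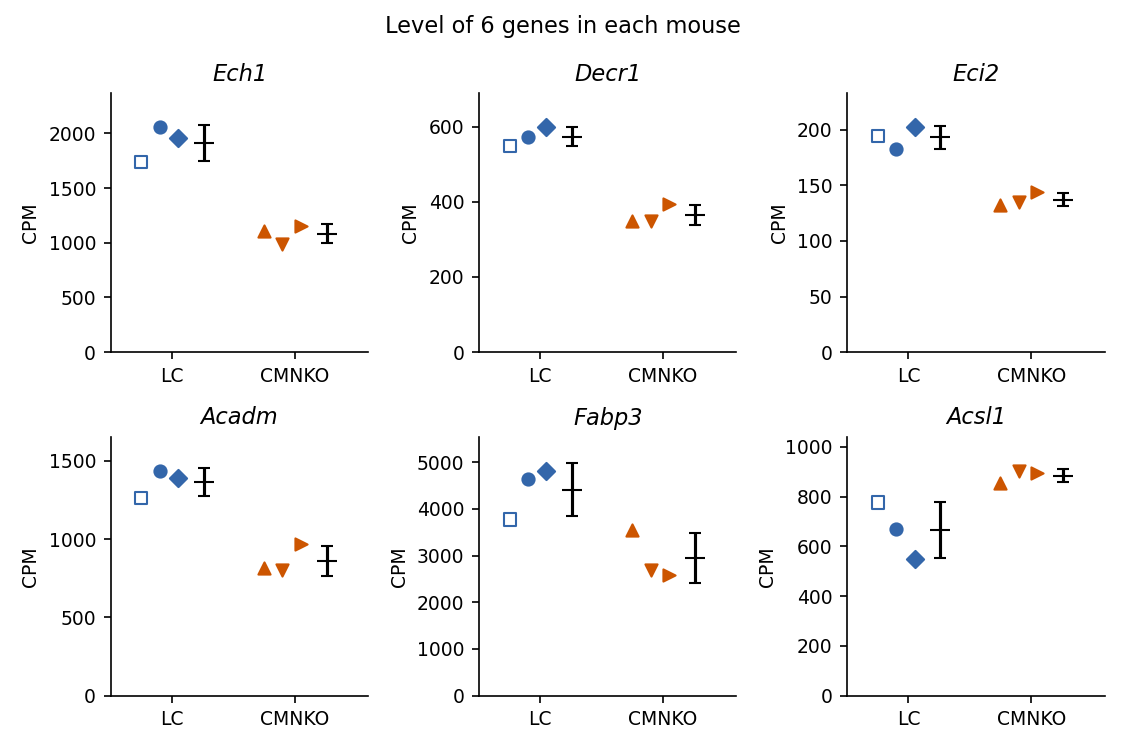
CPM of Ech1, Decr1, Eci2, Acadm, Fabp3 and Acsl1 in each mouse on axes that start at 0, with a marker shape for each mouse (LC 15 as an open square) and the mean with SD of 3 mice in black. Groups do not overlap in any panel, Acsl1 is higher in CMNKO and the other 5 are lower, and LC 15 is the control nearest to the knockouts for Ech1, Decr1, Acadm, Fabp3 and Acsl1.

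The promoter windows of Ech1 and Acadm are shown because these genes had the lowest estimates, from the same RefSeq assembly. The window of Ech1 lies at chr7:28825088-28825387 on the plus strand and that of Acadm at chr3:153944594-153944893 on the minus strand. They were searched on both strands for AGGTCA, the hexamer that PPAR and ERR receptors bind, and for the longer ERR element TCAAGGTCA and the direct repeat AGGTCANAGGTCA (DR1), both of which contain the hexamer. Capitals mark the match to AGGTCA, which in Acadm lies on the opposite strand from 249 bases before the start, and Ech1 has none.
Ech1: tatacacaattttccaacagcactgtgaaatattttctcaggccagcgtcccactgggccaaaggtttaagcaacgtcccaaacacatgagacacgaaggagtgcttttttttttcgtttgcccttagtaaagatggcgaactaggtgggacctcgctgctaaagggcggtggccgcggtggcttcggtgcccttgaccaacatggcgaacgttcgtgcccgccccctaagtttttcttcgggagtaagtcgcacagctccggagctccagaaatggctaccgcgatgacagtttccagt
Acadm: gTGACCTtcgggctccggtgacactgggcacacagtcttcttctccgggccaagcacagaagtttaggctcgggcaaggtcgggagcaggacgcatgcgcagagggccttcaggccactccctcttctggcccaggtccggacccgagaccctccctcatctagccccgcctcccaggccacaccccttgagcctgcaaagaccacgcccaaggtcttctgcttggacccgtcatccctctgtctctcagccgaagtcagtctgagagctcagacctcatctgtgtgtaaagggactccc

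Of the 29 windows of these genes 6 held AGGTCA (20.7%), those of Acadm, Cd36, Acacb, Echs1, Acadvl and Cpt1a, against 16.3% of all 32851 windows. Neither longer motif was in any of the 29, and they were in 0.423% and 0.0396% of all windows. With motifs this rare, a count of 0 in 29 windows cannot tell these genes from the rest. Only exact matches were searched, so variant sites and sites outside the windows were not seen. No window was at hand for Acaa2, Hsd17b4, Cpt1b, Lpl, Crat, Decr1 and Acat1.

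All 3 genes of electron transfer were lower by estimate in CMNKO, each with groups that did not overlap, and none passed the test. The median was -0.38, or -0.21 with the series term. Etfa and Etfb encode the subunits of the electron transfer flavoprotein, and Etfdh the oxidoreductase that hands its electrons to ubiquinone. Etfb stood at 762, 699 and 763 CPM in LC and 557, 526 and 625 CPM in CMNKO, and its log2 fold change was -0.38 ± 0.13 (SE, adjusted p = 0.156 by edgeR's quasi-likelihood test). Each control lay above each knockout, and LC 15 was level with LC 26. Etfa was at -0.39 and Etfdh at -0.32, and with the series term they were at -0.21 and -0.15, with Etfb at -0.42. The ratio of Etfa to Etfb per length ran from 0.522 to 0.702 in LC and from 0.578 to 0.635 in CMNKO (exact permutation test, p = 1).

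The peroxisomal genes showed no common direction, with a median of -0.019, or -0.18 with the series term, and overlapping groups in all 3. The thiolase Acaa1a was at 0.22 (95% interval -0.18 to 0.62), the bifunctional enzyme Ehhadh at -0.16 (-0.54 to 0.21) and the multifunctional enzyme Hsd17b4 at -0.019 (-0.36 to 0.32). For Acaa1a and Ehhadh the sign turned with the series term, to -0.18 and 0.10. Acaa1a has a near-identical copy, Acaa1b, which held 13 counts in all libraries against 2448 for Acaa1a, and the sources used here do not say how shared reads were divided.

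Of 66 other genes of fatty acid handling 64 were tested, and 1 rose and 2 fell, with a median log2 fold change of -0.0050 and 33 estimates below 0. Pdk4, the kinase that restrains glucose oxidation by inhibiting pyruvate dehydrogenase, stood at 204, 213 and 265 CPM in LC and 504, 334 and 544 CPM in CMNKO. Every knockout lay above every control, with CMNKO 17 the nearest. Pdk4 rose by 1.02 ± 0.19 (SE) on the log2 scale (adjusted p = 0.0399 by edgeR's quasi-likelihood test). Acot1, a thioesterase that returns acyl-CoA to free fatty acid, stood at 20.4, 13.8 and 17.6 CPM in LC and 6.56, 6.85 and 9.67 CPM in CMNKO, again with groups apart. Acot1 fell by 1.17 ± 0.21 (SE) on the log2 scale (adjusted p = 0.0399 by the same test), but its near-identical copy Acot2 can share its reads. With the series term Pdk4 was at 1.17 and Acot1 at -1.41 (adjusted p = 0.134 and 0.054 by the same test).

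Some levels may include reads of overlapping genes, since the sources used here do not say whether counting used strand. Among protein-coding genes of the annotation, Fabp3 overlaps Zcchc17, Crat overlaps Dolpp1, Echs1 overlaps Paox, Etfb overlaps Cldnd2 and Etfdh overlaps Ppid. Genes other than protein-coding ones overlap Decr1, Acsl1, Cpt1a, Cpt1b, Mlycd, Acadl, Acadvl, Hadhb, Eci2, Etfb and Hsd17b4.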

How the data were processed

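LV RNA of 3 LC and 3 CMNKO mice was made into TruSeq libraries and sequenced. The authors deposited raw counts per gene symbol and mouse from reads aligned to the mouse (the submitters' processing notes name mm8). For the aligner, counter and annotation, nothing is given in the sources used here. The authors' own fold changes and FDR values, held in the same table and in a table of called genes, were not used.

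The analysis used edgeR 4.0.16 in R 4.3.3. Of 17121 genes, 13040 were kept by filterByExpr, scaled by TMM and fitted by the quasi-likelihood test with genotype alone, and p-values were adjusted by Benjamini-Hochberg over all genes at 0.05. CPM per kb used the longest protein-coding transcript of each gene in a GRCm38 annotation, whose build differs from that of the counts, so gene positions are given for promoter windows only. Ratios of gene pairs were compared by exact permutation tests over mice. Scripts were tested on simulated data.

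The genes and lists were chosen with earlier results of these data known. Every member is named, and values per mouse are given for those that passed the test, the 6 with the largest fold changes, the 6 with the highest level per length and Cpt1a, Cpt1b, Acacb and Mlycd. Acsl1, Hadha and Hadhb were added after their values were seen. Of the other fatty acid genes those that passed are named, apart from 1 that is not reported here. Marker lists cover cardiomyocytes, adipocytes (8 genes), endothelium, fibroblasts, smooth muscle and pericytes, macrophages and skeletal muscle, whose only tested gene of 8 was not called. Alternatives were limma-voom (limma 3.58.1), DESeq2 1.42.0, upper-quartile scaling, library totals only, removal of mitochondrially encoded genes, no filter, at least 1 CPM in 3 libraries, the library series as a term, each mouse left out and, chosen after seeing the data, a GC content correction with and without the series term.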

Additional observations from a re-analysis of the deposited data

How the results depend on the processing

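The members that fell (2) numbered 6 by DESeq2, 1 with library totals only, 0 with a term for the library series, 0 with both this term and the GC content correction, and 0 to 12 with 1 mouse left out (12 without LC 15). Those that rose (0; 1 was higher at an unadjusted p under 0.05 by edgeR, and 2 by DESeq2 and by limma-voom) numbered 0 to 4 with 1 mouse left out. The members' median (-0.24) was -0.115 with library totals only, a scaling that put the median of all genes at 0.12, and -0.30 to -0.20 with 1 mouse left out. Other fatty acid genes that rose (1) numbered 3 by limma-voom, by DESeq2, with upper-quartile scaling and with the GC content correction, 0 with the series term, 0 with both, and 0 to 12 with 1 mouse left out, and those that fell (2) numbered 0 with library totals only, 1 with the series term and 0 to 7 with 1 mouse left out. The counts of 12 and 7 came without LC 15, where 11.8% of all genes rose and 7.67% fell. Over all genes 0.345% rose by limma-voom, 1.69% by DESeq2, 0.452% with upper-quartile scaling and 0.714% with the GC content correction. With library totals only 0.153% of all genes fell. Without CMNKO 16 or without CMNKO 17, 0 genes were called in all. The GC content correction was chosen after seeing the data. The cause of these changes was not tested.

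Signs turned with library totals only for Lpl (0.049), Cpt1b (0.027), Cpt2 (0.020), Acadvl (0.062) and Hsd17b4 (0.095). They turned with the series term for Cpt1a (-0.19), Crat (-0.30), Acacb (-0.0035), Acads (-0.25), Acaa1a (-0.18) and Ehhadh (0.097), and with this and the GC content correction for Cpt1a (-0.19), Crat (-0.30), Acads (-0.24), Acaa1a (-0.16) and Ehhadh (0.073). With the GC content correction alone they turned for Lpl (0.040) and Crat (-0.041). With 1 mouse left out the estimates ran from -0.17 to 0.044 for Cpt1b, -0.32 to 0.0014 for Mlycd, -0.15 to 0.077 for Hsd17b4, -0.076 to 0.27 for Crat, -0.042 to 0.48 for Cpt1a and -0.16 to 0.012 for Acadvl. The log2 difference in the ratio of Hadha to Hadhb was -0.32 with the series term (LC 15 as the only control) and -0.095 to 0.19 with 1 mouse left out, and that of Etfa to Etfb 0.21 and -0.12 to 0.096. Ech1 passed the test in 9 of 16 alternatives (adjusted p = 6.48e-06 to 0.198 by the tool of each) and Decr1 in 7 (0.000649 to 0.249). Counting depth limits Ehhadh most, which held 71 counts in LC 15. No paired analysis was possible because LC and CMNKO mice share no numbers.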
